A study of Arabidopsis thaliana with 6 samples.

Results

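EXO (EXORDIUM, AT4G08950, on chromosome 4) is the founding member of a plant family of secreted proteins that carry a conserved phosphate-induced protein region. It was taken here together with the 7 EXORDIUM-like loci of Arabidopsis thaliana, PHI-1 (AT1G35140, also EXL1), EXL2 (AT5G64260), EXL3 (AT5G51550), EXL4 (AT5G09440), EXL5 (AT2G17230), EXL6 (AT3G02970) and EXL7 (AT2G35150). Members were the probe sets that the platform annotation assigns to a single one of these 8 loci. EXO was the 1 locus of the 8 with such a probe set, of 13286 genes measured by a single-gene probe set, and 0 probe sets shared between genes were assigned to any of the 8. The 7 EXORDIUM-like loci are not analysed here, so the values below describe EXO and say nothing of how the rest of the family behaved. Below, a gene counts as measured only where the annotation assigns it a single-gene probe set. The annotation gives no gene for 8730 tested probe sets, so genes not measured may still be on the array.

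Transcript levels came from a 3-prime expression array, with 1 array for each of 3 ka120 and 3 WT (Col-0) samples, stated to be biological replicates. The ka120 plants carry a mutation in KA120, an importin-beta type nuclear transport receptor; the labels name no allele. All plants were untreated and grew on soil at 22 degrees C in a cycle of 12 h of light and 12 h of darkness. The tissue is given both as whole rosettes at 3 weeks and as mature leaf after 4 weeks of growth.

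EXO is known as a brassinosteroid-induced gene. Brassinosteroids are steroid hormones perceived at the cell surface by the BRI1 receptor family, and their signalling raises the expression of genes that promote cell expansion. EXO protein is secreted to the cell wall space, and plants lacking it have smaller leaves and roots with less expanded cells. Its relative PHI-1 (EXL1) is known for a role under low carbon supply. The EXLA and EXLB genes have similar symbols but are expansin-like genes and belong to another family.

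EXO was higher in ka120. The probe set gave 8.36, 8.52 and 8.53 in the ka120 samples, against 6.97, 6.62 and 6.60 in the WT samples, as log2 levels. The groups did not overlap: the lowest ka120 array lay 1.39 above the highest WT array, while the arrays of 1 genotype spanned 0.171 in ka120 and 0.369 in WT. WT replicate 1 stood above the other two WT arrays. Mean levels were 8.47 ± 0.10 in ka120 and 6.73 ± 0.21 in WT (log2, SD, n = 3 arrays each).

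The log2 difference between ka120 and WT was 1.74 (SE 0.12, 95% interval 1.49 to 2.0003), with a limma adjusted p of 1.02e-06 over all probe sets. On a linear scale this is 3.35-fold (95% interval 2.81 to 4.001). Across the array 35.9% of probe sets passed the adjusted threshold of 0.05 in either direction and 19.4% passed as higher in ka120, so passing this test was common. All 3 ka120 arrays lay above all 3 WT arrays for 23.8% of probe sets. The exact two-sided permutation test over the 6 arrays gave p = 0.1, the smallest value that 3 arrays against 3 allow. In bulk tissue, more transcript per cell and more cells that express the gene cannot be told apart.

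**Figure D1:**
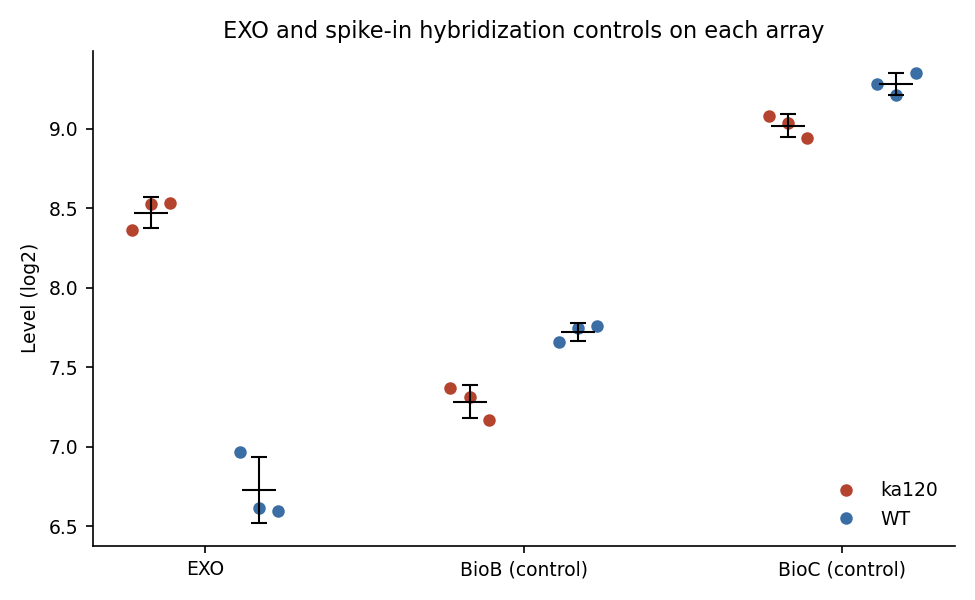
Log2 levels of EXO and of BioB and BioC, 2 hybridization controls added to every sample, on each array. Points are arrays (ka120 left, WT right), bars are the mean and SD of 3 arrays; EXO lies between 8.36 and 8.53 in ka120 and between 6.60 and 6.97 in WT, while both controls are lower in ka120.

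By size, the rise of EXO was less common than its call. Of the 2324 genes called higher, EXO ranked 94 by log2 difference, and 1.15% of all probe sets had a log2 difference as large or larger. Its level was well inside the measured range in both genotypes. On the ka120 arrays EXO stood at percentiles 91.8, 92.8 and 92.6 of all probe sets, and on the WT arrays at 79.5, 74.4 and 74.5. The files carry no detection calls, so the level was not tested against background.

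**Figure D2:**
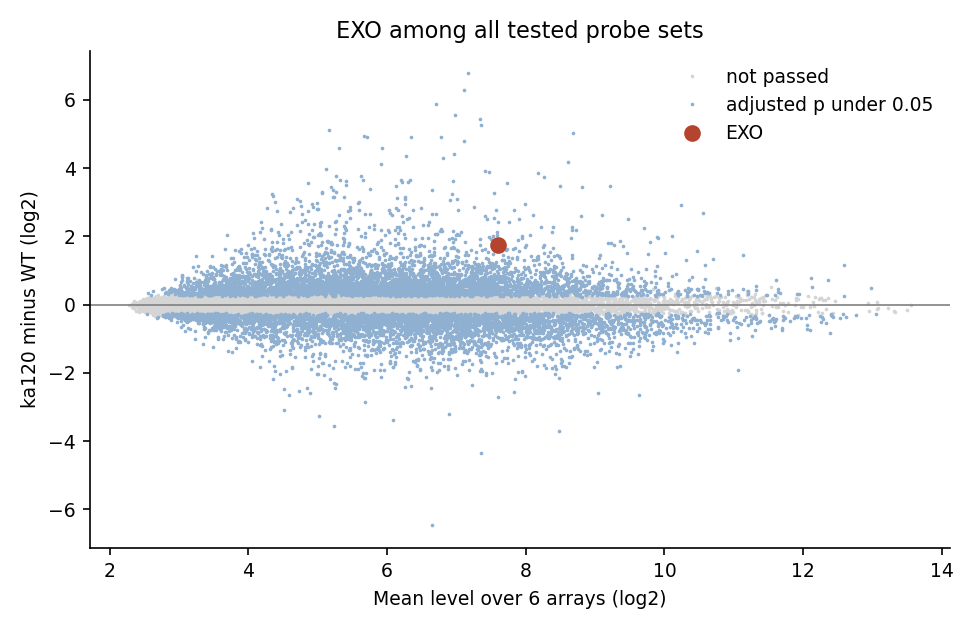
Difference between ka120 and WT (log2) against the mean level over 6 arrays (log2), 1 point for each of 22746 probe sets. EXO is the large point at a difference of 1.74, above most of the probe sets that passed the test.

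The spike-in controls nearest to EXO in level moved the other way. BioB, at a mean log2 level of 7.50, gave 7.37, 7.31 and 7.17 in the ka120 samples, against 7.66, 7.75 and 7.76 in the WT samples, a difference of -0.44. BioC, at 9.15, differed by -0.26, and the brighter controls BioD and Cre by -0.13 and 0.02. Scaling to these 4 controls made the EXO difference larger. It was 1.95 once arrays were centred on the mean control, and 2.17 once a level-dependent offset fitted to the controls was removed. Below the 7.50 of BioB that offset stays at its BioB value, so for dimmer probe sets it rests on BioB alone. Array medians lay below that level. In the deposited values the median difference of all probe sets was -0.02; median centring made it -0.15, and the control-based scalings 0.18 and 0.41. The 2 centrings move all probe sets alike and so cannot change where EXO stands relative to that median, 1.77 above it.

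EXO kept its direction and its call under all 15 alternatives run. Its log2 difference lay between 1.62, after median centring, and 2.17, with adjusted p between 9.80e-18 and 0.00501 from the limma fits, the highest with an ordinary t statistic in place of the moderated one. Leaving out each array in turn gave 1.68 to 1.86, the highest value without WT replicate 1. Its rank among named genes by log2 difference ran from 82, without WT replicate 1, to 108, without WT replicate 3.

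**Figure D3:**
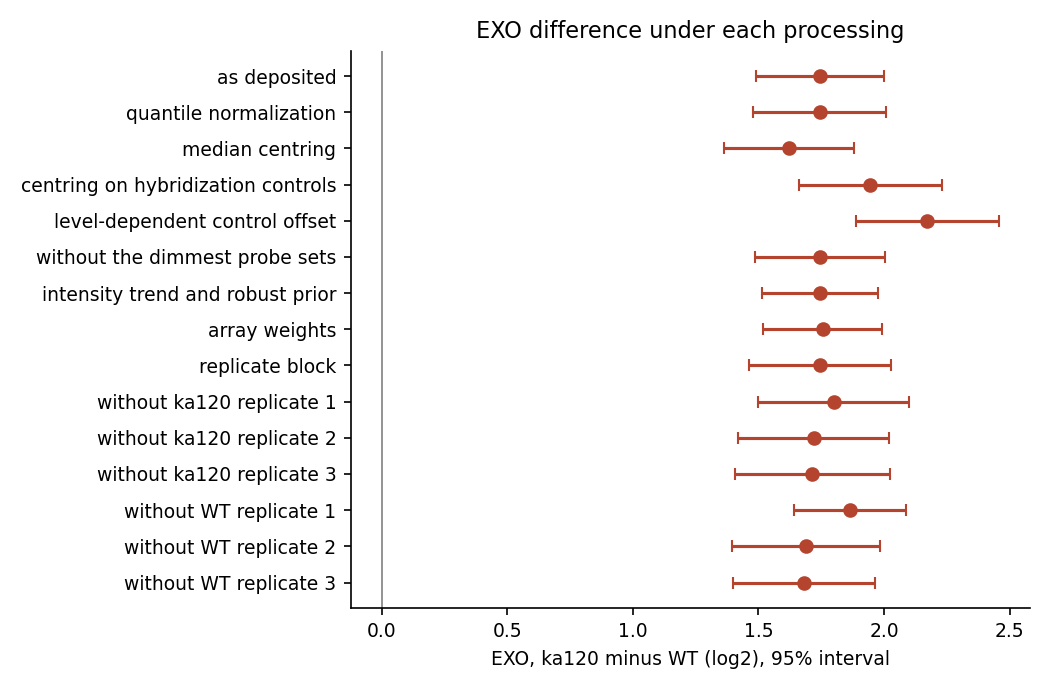
Log2 difference of EXO between ka120 and WT, with its 95% interval, for the deposited values and 14 other ways of processing them. All intervals lie above 0, and the differences run from 1.62 to 2.17.

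Few genes of the hormone pathway that induces EXO were matched to a single-gene probe set. Of 30 listed brassinosteroid signalling genes 1 was measured, the receptor BRL1, a close relative of BRI1, with 3.30, 3.08 and 3.55 in the ka120 samples, against 3.27, 3.19 and 3.18 in the WT samples (log2). The groups overlapped, and the log2 difference of 0.10 (95% interval -0.16 to 0.36) did not pass the test (limma adjusted p = 0.579). Its level was low, at percentiles 26.9 in ka120 and 22.5 in WT. Its difference was -0.02 after median centring and 0.54 with the level-dependent control offset. With that offset it passed as higher, as did 68% of all probe sets. Of 16 listed genes of brassinosteroid synthesis and breakdown 0 were measured. The same held for the 4 genes listed as depending on EXO, KCS1, EXPA5, TIP2;1 and AGP4.

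A search of the gene table for brassinosteroid in a gene's names found 24 genes, of which 2 were measured. Of these 0 passed the limma test, also 0 at an unadjusted p under 0.05. Over all probe sets 35.9% passed the limma test in either direction, and 2 genes are too few to be told apart from that share. BRH1, a RING finger gene known to respond to brassinosteroid, gave 7.82, 7.98 and 7.97 in the ka120 samples, against 8.03, 8.07 and 8.002 in the WT samples (log2). All its ka120 arrays were slightly below all its WT arrays, as for 22.8% of probe sets, but the log2 difference of -0.11 (95% interval -0.31 to 0.08) did not pass, with a limma adjusted p of 0.382. It was 0.09 and 0.27 under the control-based scalings. BIN4, a subunit of a DNA topoisomerase found through a brassinosteroid-insensitive mutant, differed by 0.15 and did not pass (limma adjusted p = 0.206). All its ka120 arrays were slightly above all its WT arrays, as for 23.8% of probe sets. It passed as higher at 0.35 and 0.59 under the control-based scalings, as did 31.9% and 68% of all probe sets.

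Among xyloglucan endotransglucosylase/hydrolases (XTH), enzymes that cut and rejoin wall xyloglucan and include known brassinosteroid-responsive members, 10 of 33 genes were measured. Of these 1 was called higher, 1 lower, and 8 did not pass. The share called higher over all probe sets was 19.4%, and the share called lower 16.5%. The median log2 difference of the 10 was -0.02, and that of all probe sets was also -0.02.

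XTH16 rose, with 7.07, 6.92 and 7.30 in the ka120 samples, against 6.59, 6.30 and 6.51 in the WT samples (log2), a log2 difference of 0.63 (limma adjusted p = 0.00169). XTH32 fell, with 8.04, 8.23 and 8.28 in the ka120 samples, against 10.01, 9.92 and 9.67 in the WT samples, a log2 difference of -1.68 (limma adjusted p = 1.09e-06). Neither gene had overlapping groups, as for 23.8% of probe sets with ka120 above WT and 22.8% with ka120 below. XTH27 (EXGT-A3), the brightest member that did not pass, differed by 0.10. Of the measured XTH genes 3 were called higher when arrays were centred on the hybridization controls, against 31.9% of all probe sets. Once the level-dependent offset was removed 7 were, against 68% of all probe sets. These counts moved with the whole array, so the direction of small XTH differences depended on the scaling. XTH16 stayed higher, by 1.06 with that offset removed, and XTH32 lower under every alternative run.

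The log2 difference of EXO was above that of each measured XTH gene. Of all probe sets 1.15% had a log2 difference as large or larger, so most genes of any list lie below EXO. Computed within each array as EXO minus the other gene, the response of EXO exceeded that of XTH16 by 1.12 and that of XTH32 by 3.43 on the log2 scale. Over the 10 such pairs the exact two-sided permutation p was 0.1 each, also after Benjamini-Hochberg adjustment, which is the smallest p that this design can give. The pairs share the EXO values and are not independent.

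Expansins, proteins that loosen the wall without cutting it, were picked by the word in the gene table, together with expansin-like genes. Of 38 such genes 19 were measured, 1 called higher and 6 lower, against 19.4% and 16.5% of all probe sets, and their median log2 difference was -0.10. EXPB1, a beta-expansin, fell most, with 4.00, 3.81 and 4.16 in the ka120 samples, against 6.20, 6.10 and 5.74 in the WT samples (log2), a log2 difference of -2.03. EXLA2, an expansin-like gene, fell by 0.76, the beta-expansin EXPB3 by 0.73 and the alpha-expansin EXPA8 by 0.58. Once the level-dependent offset was removed these 3 differences were smaller, at -0.32, -0.29 and -0.27, with limma adjusted p of 0.0368, 0.0469 and 0.0754, so EXPA8 lost its call. The alpha-expansin EXPA21, named because it was the 1 gene called higher, differed by 0.30 at a low level (percentiles 31.1 in ka120 and 20.9 in WT), and its call was lost without ka120 replicate 1 or 3, without WT replicate 1 or 3, with the replicate block and after median centring. EXPA15, the brightest that did not pass, differed by 0.25; it passed as higher under the control-based scalings, at 0.45 and 0.69, and without WT replicate 1, at 0.34. The split of 1 higher and 6 lower became 0 and 8 after median centring and 3 and 4 when arrays were centred on the hybridization controls. It became 10 and 3 once the level-dependent offset was removed. Over all probe sets 14.6%, 31.9% and 68% were called higher in these settings, in the same order. Of all calls on the array 34.7%, 77.8% and 91.8% were higher, against 53.9% as deposited. The split thus moved in the direction in which the calls of the whole array moved.

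**Figure D4:**
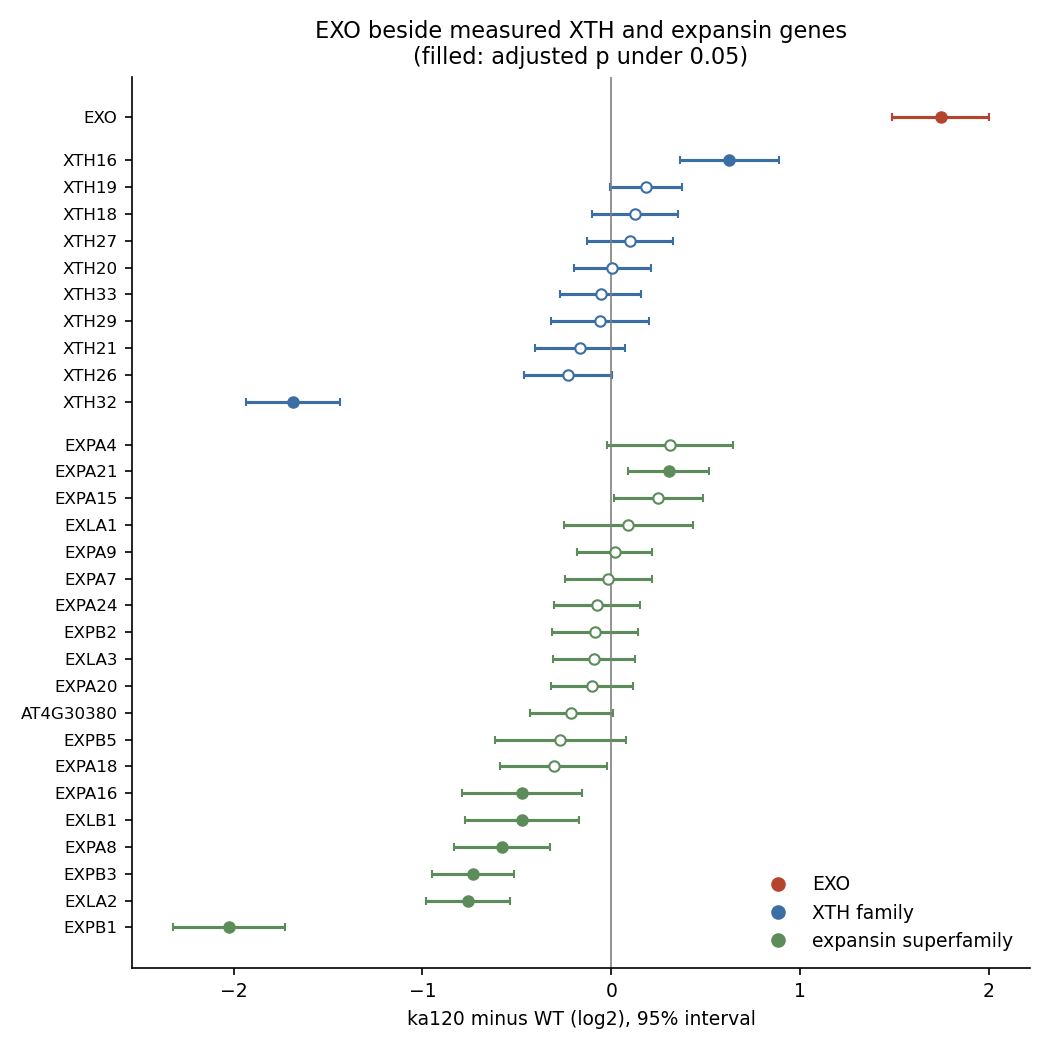
Log2 difference between ka120 and WT with its 95% interval for EXO, the 10 measured XTH genes and the 19 measured genes with expansin in their names; filled points passed an adjusted p of 0.05. EXO, at 1.74, lies to the right of every gene of both families, and EXPB1, at -2.03, lies farthest to the left.

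Carbon starvation genes were listed because of the known role of PHI-1 (EXL1), and 2 of 20 were measured. AKINBETA1, a regulatory subunit of the SnRK1 energy-sensing kinase, fell, with 6.15, 5.83 and 6.07 in the ka120 samples, against 6.70, 7.05 and 6.56 in the WT samples (log2), a log2 difference of -0.76 (limma adjusted p = 0.00108). The groups did not overlap, with ka120 below WT as for 22.8% of probe sets. Under the control-based scalings the difference was -0.55 and -0.32, the second with a limma adjusted p of 0.0412. BZIP53, a transcription factor active under low energy, differed by 0.14 and did not pass (limma adjusted p = 0.273). It passed as higher, at 0.34 and 0.55, under the control-based scalings. There 31.9% and 68% of all probe sets were called higher, and the median difference of all probe sets was 0.18 and 0.41.

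Genes near EXO in the TAIR10.1 gene order did not pass the limma test, nor an unadjusted p of 0.05. The share of all probe sets that passed the limma test in either direction was 35.9%. AT4G08940, 3 genes before EXO, differed by 0.07, AT4G08960, 3 genes after it, by 0.22, and the pseudogene AT4G08970, 4 genes after it, by -0.07 on the log2 scale. These 3, named after their values were seen, were the genes measured within 12 positions on each side. All 3 differences were positive with the level-dependent offset, at 0.51, 0.66 and 0.37, and past the threshold there. With that offset 68% of all probe sets were called higher, and the median difference of all probe sets was 0.41. In the deposited values all ka120 arrays of AT4G08960 lay slightly above all its WT arrays, as for 23.8% of probe sets.

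The genes whose pattern over the 6 arrays was most like that of EXO were found by the root mean square distance between profiles, each minus its own mean over the arrays. Of 13285 other genes, AT4G11000, an ankyrin repeat gene, was nearest at 0.0455 on the log2 scale, followed by AT5G39670, an EF-hand calcium-binding gene, at 0.0535. AT1G11330, an S-locus lectin receptor-like kinase, followed at 0.0731, AT5G25440, a receptor-like cytoplasmic kinase, at 0.0769, and SAG101, a partner of the immune regulator EDS1, at 0.0827. Their log2 differences between ka120 and WT lay between 1.62 and 1.84. The genes were picked for this likeness, so their sharing the level of each array with EXO, within a genotype too, is set by the choice. Of the measured growth and starvation genes, XTH16 was nearest to EXO, at rank 925 with a distance of 0.578.

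**Figure D5:**
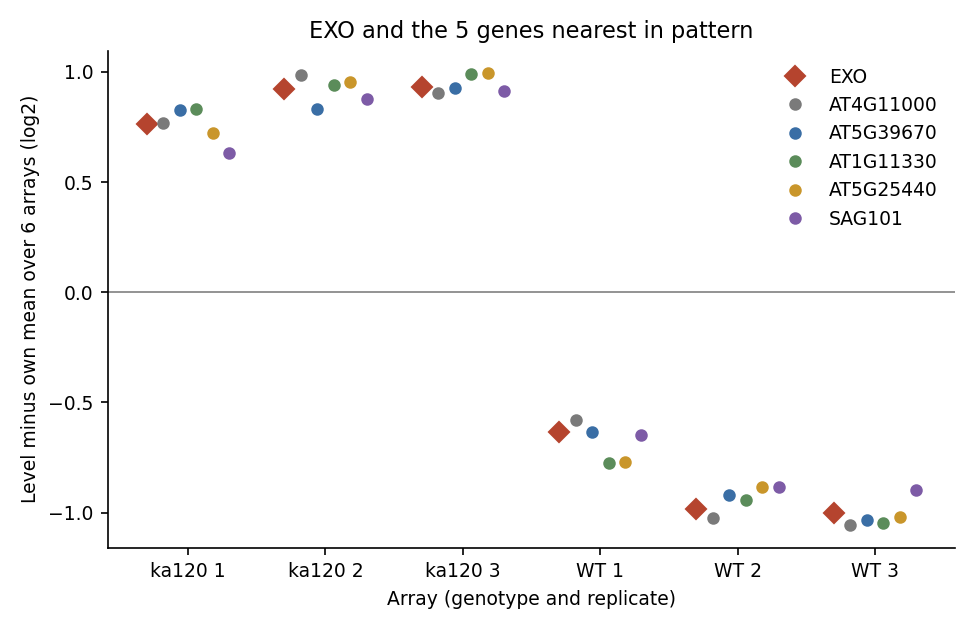
Log2 level minus the gene's own mean over 6 arrays, for EXO (diamonds) and the 5 genes nearest to it in pattern (circles), on each array. All 6 genes are above their mean on the 3 ka120 arrays and below it on the 3 WT arrays, as follows from how they were picked.

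Array medians lay between 4.64 and 4.79 (log2), and pairs of arrays correlated across probe sets at 0.993 to 0.997 within a genotype and 0.961 to 0.965 between genotypes. The KA120 probe set averaged 3.98 ± 0.29 in ka120 and 4.44 ± 0.11 in WT (log2, SD, n = 3 arrays each). The log2 difference was -0.45 (limma adjusted p = 0.0222) at a low level, so it is a weak check of the genotype. Of 9 leaf marker genes 5 were measured and 4 were lower in ka120, against 16.5% of all probe sets. The list was chosen with earlier results of these data known, so this count is not an independent readout. The mean level of the 5 per array ran from 11.76 to 11.79 in ka120 and from 12.20 to 12.32 in WT (log2). Both were near the top of the measured range. TRY, the 1 measured gene of 6 trichome markers, fell by 1.07, with 4.28 to 4.47 in ka120 and 5.26 to 5.69 in WT. Markers of guard cells (2 of 6 measured), roots (2 of 8) and meristems (1 of 6) did not pass, with mean levels per array of 4.50 to 4.71, 3.38 to 3.64 and 2.98 to 3.20 in ka120, against 4.66 to 4.84, 3.54 to 3.77 and 3.05 to 3.40 in WT; 0 of 7 flower markers were measured. The part of leaf or trichome cell composition in the EXO difference was not tested.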

How the data were processed

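The deposited values are on a log2 scale, with 1 value per probe set and array, as their range shows. Per the submitters' processing notes the affy package was used; no version, background correction or normalization is named. The table held 22810 probe sets, and its 64 array controls were not tested. Genes were named from the platform annotation, whose gene identifiers were looked up in the TAIR10.1 table: 13436 of 13513 probe sets with a single gene matched, 503 had several genes, and 8730 had none. Where a gene had several probe sets the brightest was taken; each listed gene measured had 1.

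Differences over all 22746 remaining probe sets were fitted by limma (version 3.58.1, R version 4.3.3; lmFit, then eBayes) without a block or a filter, with Benjamini-Hochberg adjustment and a threshold of 0.05. The number of arrays limits the precision.

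EXO, the gene lists and the tests were chosen with earlier results of these data known. The expansin and brassinosteroid word lists were added after the planned lists proved thinly measured. Named were EXO, BRL1, the 4 EXO-dependent genes, up to 4 members with the largest passing change and the brightest not passing in each list, and the 5 genes nearest in pattern. Planned comparisons of EXO with its EXORDIUM-like relatives could not be run; comparisons with XTH genes were added in their place. Words searched for arabinogalactan, ketoacyl-CoA synthase and tonoplast intrinsic genes matched 0 measured genes. Deviations from the group mean correlated at -0.01, -0.19 and 0.13 for same-numbered arrays, and between -0.28 and 0.26 for other pairs. With 3 arrays per group this cannot show whether same-numbered arrays shared a batch, and the main fit assumed no pairing.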

Additional observations from a re-analysis of the deposited data

How the results depend on the processing

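EXO was called higher under each alternative, including with an ordinary t statistic without the shared variance prior, added after the data had been seen (limma model, adjusted p = 0.00501). With a replicate block its log2 difference was 1.74 (adjusted p = 5.68e-06); among the other named genes the block changed the call of EXPA21 (adjusted p = 0.0586). Across the array, median centring gave 6235 lower calls against 3760 as deposited. With arrays centred on the hybridization controls 7255 were called higher and 2072 lower, and with the level-dependent offset 15475 and 1382, against 4405 and 3760 as deposited. These scalings changed both the offset and the limma prior, and the share of each in the counts was not tested. Under these 2 scalings the limma prior rose from 6.65 to 14.75 and 41.79 degrees of freedom. Their adjusted p-values may therefore be too small, which was not tested. Among XTH genes, 2 were lower after median centring, where 6235 of 22746 probe sets were. Under the control-based scalings 3 and 7 were higher, against 31.9% and 68% of all probe sets.

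Small differences changed sign: BRL1 to -0.025 after median centring and -0.020 without ka120 replicate 3 (range -0.020 to 0.22 over left-out arrays), XTH27 to -0.025 after median centring, AT4G08940 to -0.046 after quantile normalization and -0.051 after median centring, BRH1 to 0.089 and 0.27, and AT4G08970 to 0.13 and 0.37, under the 2 control-based scalings. None of these 5 genes was called as deposited. The mean over several probe sets was not run, since each listed gene measured had 1. All levels come without detection calls, so dim genes such as BRL1 and EXPA21 were not shown to exceed background.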
